A study of Mus musculus with 6 samples.

Results

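Expression of 6 fibroblast growth factor (FGF) ligand genes (Fgf4, Fgf5, Fgf8, Fgf10, Fgf15 and Fgf17) and of the 4 FGF receptor genes (Fgfr1, Fgfr2, Fgfr3 and Fgfr4) was examined in mouse embryonic stem cells with and without hairpins against Jmjd1c. The genes were chosen by name, and every probe set whose only symbol in the platform annotation was one of these 10 was taken, which gave 24 probe sets for 10 of the 18193 genes named on the array. The cells were J1 embryonic stem cells on gelatin in 15% serum with 1000 U/ml leukemia inhibitory factor, the cytokine that keeps such cells undifferentiated. All groups carried a pLKO.1 lentivirus and had been selected with puromycin at 1.5 ug/ml for 2 days and then cultured for 4 days. The groups were shJmjd1c#3 and shJmjd1c#4, labelled Jmjd1c knockdown, and shNT, the non-targeting hairpin in cells labelled wild type, with 2 arrays each. The 2 arrays of a group are called biological replicates. They were populations of 1 cell line, so the p-values measure only the spread between these samples, and the number of arrays limits the precision.

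FGF ligands are secreted proteins that bind receptor tyrosine kinases on the cell surface together with heparan sulphate, and the activated receptor signals through adaptor proteins to the ERK kinases. In mouse embryonic stem cells Fgf4 is the main ligand made by the cells themselves, and its signal through ERK is needed for them to leave the naive state. Fgf5 is a classical marker of the epiblast after implantation and of cells that have left the naive state. Fgfr1 is the main receptor of these cells, while Fgfr2 is best known in primitive endoderm, trophoblast and epithelia.

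Signals are array intensities on a linear scale, and differences are of log2(signal + 16), which understates the change of dim genes. A gene was represented by its brightest probe set and tested when its mean reached the 40th percentile of all probe sets, a signal of 40.12. Of the 10 genes 8 were tested among 12684 genes, while Fgf8 and Fgf10 were too dim. A call is an adjusted p under 0.05 by limma over all genes tested. Because arrays with the same replicate number deviated together, each comparison was also fitted with the replicate number as a block, called the block here; no label states what the number shares.

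The promoters of 3 of these genes are shown because Fgf5 and Fgfr2 were the members whose representative signal was higher in all 4 knockdown arrays than in both shNT arrays, and because Fgf4 is the abundant ligand of these cells; they were picked after the values had been seen. Each runs from 250 bases before to 50 bases after the RefSeq gene start in GRCm38.p6, 5′ to 3′ on the gene's strand. Capitals mark the GC box GGGCGG, the TATA box TATAAA and the octamer ATGCAAAT, each searched on both strands. The table of promoters matched 6 of the 10 genes by symbol. No motif overlapped another.
Fgf4, chr7:144861136-144861435, + strand: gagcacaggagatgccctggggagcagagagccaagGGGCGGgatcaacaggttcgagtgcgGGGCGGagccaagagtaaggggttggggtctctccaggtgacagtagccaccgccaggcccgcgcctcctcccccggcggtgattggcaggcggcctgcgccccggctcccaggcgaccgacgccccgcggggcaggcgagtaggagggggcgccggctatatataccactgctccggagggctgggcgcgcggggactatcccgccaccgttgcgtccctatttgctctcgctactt
Fgf5, chr5:98253934-98254233, + strand: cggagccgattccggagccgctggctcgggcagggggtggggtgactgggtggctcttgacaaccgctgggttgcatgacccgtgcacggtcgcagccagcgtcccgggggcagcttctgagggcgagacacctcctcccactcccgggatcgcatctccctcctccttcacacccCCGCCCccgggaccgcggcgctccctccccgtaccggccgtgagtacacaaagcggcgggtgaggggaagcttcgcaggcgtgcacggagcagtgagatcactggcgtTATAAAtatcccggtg
Fgfr2, chr7:130266759-130267058, - strand: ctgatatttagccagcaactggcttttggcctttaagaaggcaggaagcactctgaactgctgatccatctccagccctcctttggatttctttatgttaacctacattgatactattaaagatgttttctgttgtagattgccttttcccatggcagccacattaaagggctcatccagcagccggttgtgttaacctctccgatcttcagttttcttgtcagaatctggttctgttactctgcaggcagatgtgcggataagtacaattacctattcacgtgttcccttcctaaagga
The Fgf4 window held 2 GC boxes, the Fgf5 window 1 GC box and 1 TATAAA, and the Fgfr2 window none of these letters. The TATAAA of Fgf5 lay after the gene start, within the last 50 bases of its window, so these letters alone do not make it a promoter TATA box. Only exact letters were searched, so the stretch tatatata before the gene start in the Fgf4 window stayed unmarked. Among 32851 windows of this length in the same table, 35.7% held the GC box, 13.6% the TATA box and 1.74% the octamer. GC content was 69.7% for Fgf4 and 68.3% for Fgf5, against a median of 52.7% over all windows, and 43.7% for Fgfr2. CpG pairs numbered 28, 29 and 4 in Fgf4, Fgf5 and Fgfr2, against a median of 7.

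The targeted gene gave a mixed check of the labels. Jmjd1c probe set 1426900_at read 4541 and 4984 in shJmjd1c#3 and 3274 and 4215 in shJmjd1c#4, against 6060 and 5516 in shNT, so all knockdown arrays were lower. At probe sets 1448049_at and 1439998_at all 4 knockdown arrays were higher than both shNT arrays, with 630 to 822 against 368 and 373 at the first and 286 to 511 against 198 and 273 at the second. The groups are named by their labels here. The 18S control signal was 3712 to 6177 in knockdown arrays, against 8140 and 6875 in shNT. The embryonic stem cell markers Pou5f1, Sox2 and Nanog read 9281 to 10932, 12259 to 13604 and 5888 to 8018 in knockdown arrays, against 9069 and 11587, 16069 and 15944, and 7434 and 11375 in shNT. These markers of the labelled cell type were bright in every array. Over the 8 listed stem cell markers the median log2 difference was -0.25, and 1 of the 8 was positive, against 51.7% of all genes tested. With the block 4 were called lower, where 2.26% of all genes were. Their summed signal was 85413 to 97719 in knockdown arrays, against 99953 and 120244 in shNT.

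Fgf5 had the largest log2 difference of the 8 tested genes, followed by Fgfr2 and Fgf15. None of the 8 was called in the mean of both hairpins against shNT by limma, where 0.725% of all genes tested were called (0.56% higher and 0.166% lower), and 2 of the 8 (Fgf5 and Fgfr2) had an unadjusted p under 0.05, against 12.3% of all genes tested. With the block Fgf5, Fgf15 and Fgfr2 were called, all 3 higher, where 5.6% of all genes were called (3.33% higher and 2.26% lower). The median log2 difference was 0.03 over the 8 genes and 0.01 over all genes tested. The other 5 tested genes had no call in either fit.

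**Figure D1:**
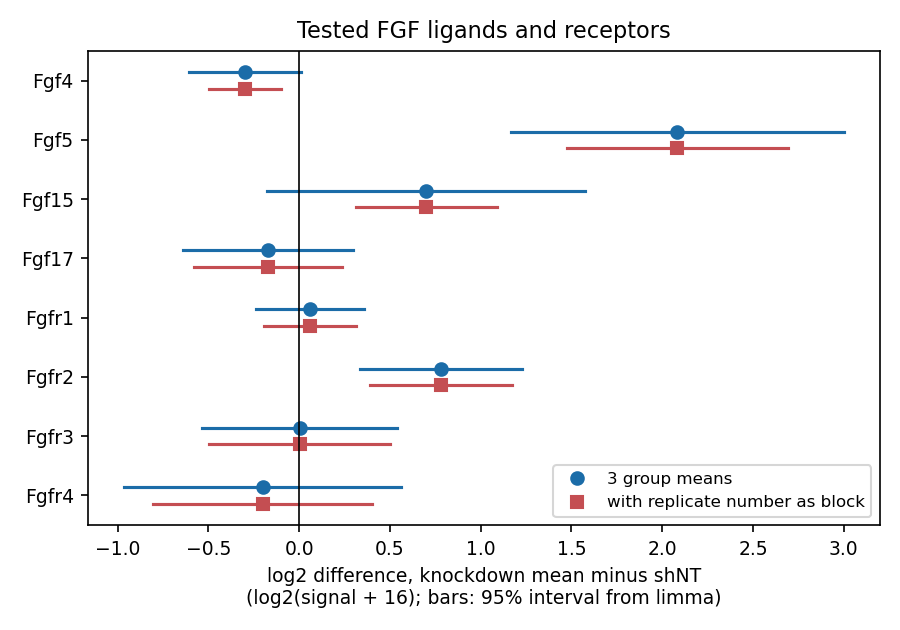
Log2 difference of the 8 tested FGF genes, mean of both hairpins minus shNT, on the horizontal axis, with 95% intervals from limma; circles are the fit of 3 group means and squares the fit with the replicate number as a block. Fgf5 lies at 2.08, Fgfr2 at 0.78 and Fgf15 at 0.70, and the block narrows their intervals without moving the values.

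Among the ligands, Fgf4 was bright in every array. Its brightest probe set, 1420085_at, read 2824 and 3222 in shJmjd1c#3 and 2837 and 3864 in shJmjd1c#4, against 3765 and 4012 in shNT. Both shJmjd1c#3 arrays lay below both shNT arrays, while 1 shJmjd1c#4 array lay between them. The mean was 3187 ± 488 in knockdown and 3888 ± 174 in shNT arrays (SD, n = 4 and 2), a log2 difference of -0.30 (limma adjusted p = 0.423, SE 0.14; 95% interval -0.60 to 0.01). It was not called with the block either (limma adjusted p = 0.0878), and it was at -0.19 without shJmjd1c#4 replicate 1 and -0.18 with the mean of probe sets. Probe set 1420086_x_at, which may cross-hybridize, read 2631 to 3616 in knockdown arrays, against 3099 and 3444 in shNT, a log2 difference of -0.12 (SE 0.14). Dimmer probe sets of Fgf4 read 141 to 209 against 210 and 199 (1450282_at) and 80.5 to 159 against 210 and 102 (1449729_at), and the groups overlapped at each of the 3.

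Fgf5 was dim in control cells and higher in each knockdown array. Probe set 1438883_at read 189 and 89.9 in shJmjd1c#3 and 174 and 113 in shJmjd1c#4, against 36.1 and 8.63 in shNT. The lowest knockdown array was thus above the highest shNT array, and 11.2% of all genes tested showed the same order of arrays, with 9.54% in the opposite order. The mean signal was 141 ± 47.5 in knockdown and 22.4 ± 19.4 in shNT arrays (SD, n = 4 and 2). The log2 difference was 2.08 (limma adjusted p = 0.0706, SE 0.40; 95% interval 1.17 to 3.00), just outside the threshold. It was called with the block (limma adjusted p = 0.00142, SE 0.28), and also when the 4 knockdown arrays were fitted as 1 group (limma adjusted p = 0.0393). With the block it was called without each of the 6 arrays in turn, at 1.92 to 2.25, a check added after the data were seen. Both shNT values lay below the filter signal, so the size depends on the pseudocount: the difference was 1.24 with a pseudocount of 64 and 2.85 with a pseudocount of 1, neither called. The other Fgf5 probe set, 1426186_a_at, stayed under a signal of 8 in 5 arrays and read 44.1 in shJmjd1c#4 replicate 2. It did not carry the same pattern, and its groups overlapped. The highest of the Trpn control probe sets read 8.90 and 5.62 in shNT replicates 1 and 2, below Fgf5 on the same arrays. In the knockdown arrays it read 16.9 to 27.8, also below Fgf5 on the same arrays. These control values were thus higher in all 4 knockdown arrays than in both shNT arrays.

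Fgf15, the mouse counterpart of human FGF19 and a target of FGF and Hedgehog signals in the embryo, differed between replicate numbers within each group. It read 356 and 192 in shJmjd1c#3 replicates 1 and 2 and 459 and 272 in shJmjd1c#4 replicates 1 and 2, against 292 and 111 in shNT replicates 1 and 2. Replicate 1 was the higher array in all 3 groups, and the groups overlapped. The log2 difference was 0.70 (limma adjusted p = 0.516, SE 0.39), and it was called with the block (limma adjusted p = 0.042, SE 0.18). Single shNT arrays decided its size: the difference was 0.06 without shNT replicate 2 and 1.34 without shNT replicate 1. With the block 3 of the 6 fits with an array left out called it, and it was lost without shNT replicate 2 (0.45), shJmjd1c#3 replicate 2 (0.66) or shJmjd1c#4 replicate 2 (0.62).

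Fgf17, a ligand of the Fgf8 subfamily, gave opposite signs at its probe sets. Probe set 1421523_at read 255 and 229 in shJmjd1c#3 and 169 and 193 in shJmjd1c#4, against 203 and 277 in shNT, a log2 difference of -0.17 (limma adjusted p = 0.815, SE 0.21). Probe set 1456239_at read 186 and 163 in shJmjd1c#3 and 116 and 124 in shJmjd1c#4, against 101 and 158 in shNT, a difference of 0.18 (SE 0.26). At both probe sets the shJmjd1c#4 arrays lay below the shJmjd1c#3 arrays; the difference shJmjd1c#4 minus shJmjd1c#3 at the brighter one was -0.39 (limma adjusted p = 0.859, SE 0.24), which was not called.

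Fgf8, a ligand of the gastrulating embryo, and Fgf10, a ligand of mesenchyme that acts on epithelial Fgfr2, were dim. Fgf8 read 21.5 and 5.56 in shJmjd1c#3 and 1.63 and 8.69 in shJmjd1c#4, against 8.67 and 5.62 in shNT. Fgf10 read 37.4 and 29.3 in shJmjd1c#3 and 61.7 and 28.2 in shJmjd1c#4, against 51.7 and 9.41 in shNT. The groups overlapped for both genes. In the fit over all 45037 probe sets, with no filter, the difference of Fgf10 was 0.37 (limma adjusted p = 0.885, SE 0.48), and -0.33 without shNT replicate 2.

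**Figure D2:**
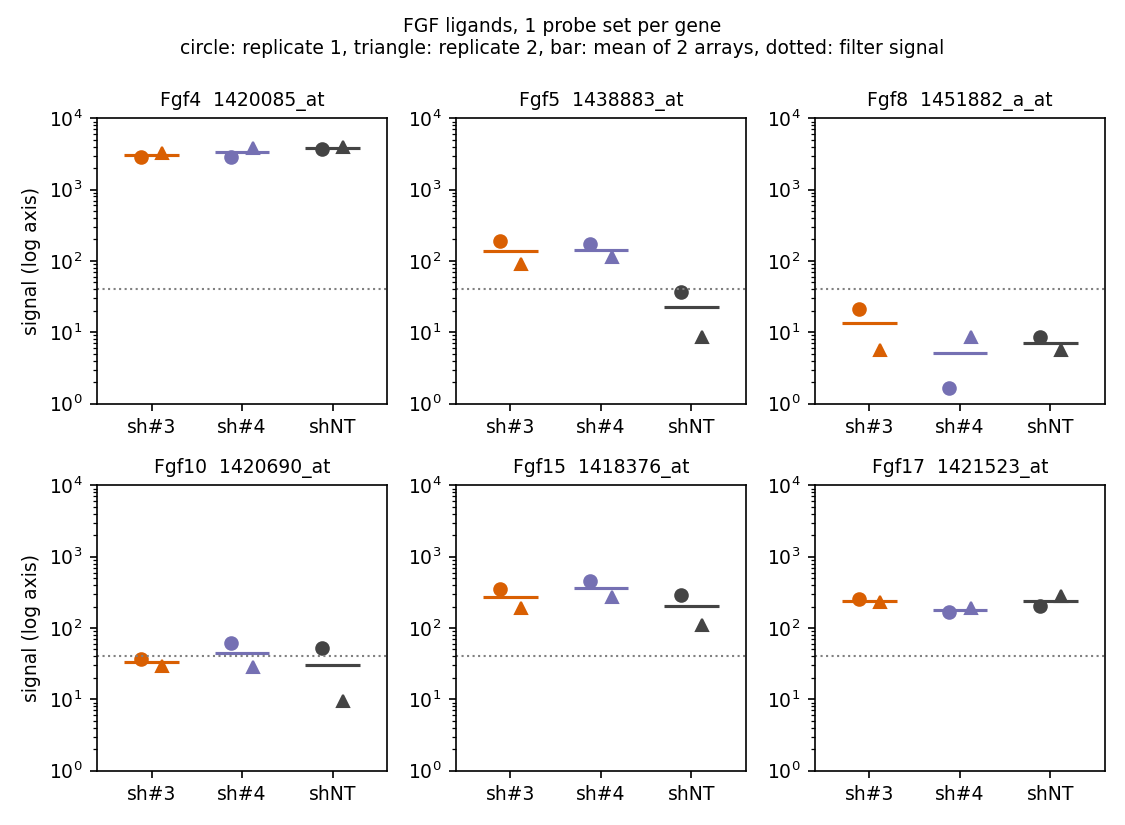
Signal on a log axis of the brightest probe set of each of the 6 ligand genes in shJmjd1c#3, shJmjd1c#4 and shNT; circles are replicate 1, triangles replicate 2, bars the mean of 2 arrays and the dotted line the filter signal of 40.12. Fgf5 is the ligand with all 4 knockdown arrays, at 89.9 to 189, above both shNT arrays, and Fgf15 shows the higher circle in each group.

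Among the receptors, Fgfr1 differed little between groups. Probe set 1424050_s_at read 1239 and 1309 in shJmjd1c#3 and 1441 and 1110 in shJmjd1c#4, against 1224 and 1210 in shNT. The shJmjd1c#4 arrays spanned the values of the other groups. The log2 difference was 0.06 (limma adjusted p = 0.905, SE 0.13), with a 95% interval of -0.24 to 0.36, and the value was -0.015 with median centring. The other Fgfr1 probe sets gave 0.14 (1436551_at, SE 0.21) and 0.11 (1425911_a_at, SE 0.28). At 1425911_a_at both shJmjd1c#4 arrays, at 109 and 108, lay above all shJmjd1c#3 and shNT arrays, which were at 77.5 to 90.4.

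Fgfr2 was the receptor with higher values in the knockdown arrays. Probe set 1433489_s_at read 386 and 527 in shJmjd1c#3 and 432 and 480.4 in shJmjd1c#4, against 301 and 219.6 in shNT. All 4 knockdown arrays lay above both shNT arrays. The mean was 456 ± 60.8 in knockdown and 260.2 ± 57.3 in shNT arrays (SD, n = 4 and 2). The log2 difference was 0.78 (limma adjusted p = 0.159, SE 0.20; 95% interval 0.33 to 1.23), which was not called, and it was called with the block (limma adjusted p = 0.0284, SE 0.18). Probe set 1420847_a_at, which is not of the kind marked as open to cross-hybridization, read 73.0 and 91.5 in shJmjd1c#3 and 93.9 and 132 in shJmjd1c#4, against 75.4 and 25.7 in shNT. Its difference was 0.85 (limma adjusted p = 0.596, SE 0.39), with 1 knockdown array inside the range of the shNT arrays. It was 0.29 without shNT replicate 2, 1.42 without shNT replicate 1 and 0.52 when 64 was the pseudocount. With the block the call on Fgfr2 was lost without shNT replicate 2 (0.42, limma adjusted p = 0.219) or shJmjd1c#3 replicate 2 (0.64, limma adjusted p = 0.059). The third probe set, 1443211_at, read at most 7.24 in any array.

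Fgfr3, known for its role in cartilage growth, and Fgfr4, the receptor of liver for Fgf15, gave no call. Fgfr3 read 127 and 160.1 in shJmjd1c#3 and 162 and 115 in shJmjd1c#4, against 147 and 132 in shNT. Its log2 difference was 0.00 (SE 0.24), with a 95% interval of -0.54 to 0.54, which became -0.056 after quantile normalization and -0.072 after median centring. Fgfr4 probe set 1418596_at read 79.6 and 46.3 in shJmjd1c#3 and 97.6 and 60.3 in shJmjd1c#4, against 105 and 62.2 in shNT, a difference of -0.20 (limma adjusted p = 0.87, SE 0.34), and 0.12 without shNT replicate 1. The next brightest Fgfr4 probe set, 1427846_x_at, had the opposite sign, at 0.23 (SE 0.32). Its 4 knockdown arrays, at 59.5 to 83.6, all lay above the shNT arrays at 58.3 and 55.6. The probe sets of Fgfr4 thus differed in sign.

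**Figure D3:**
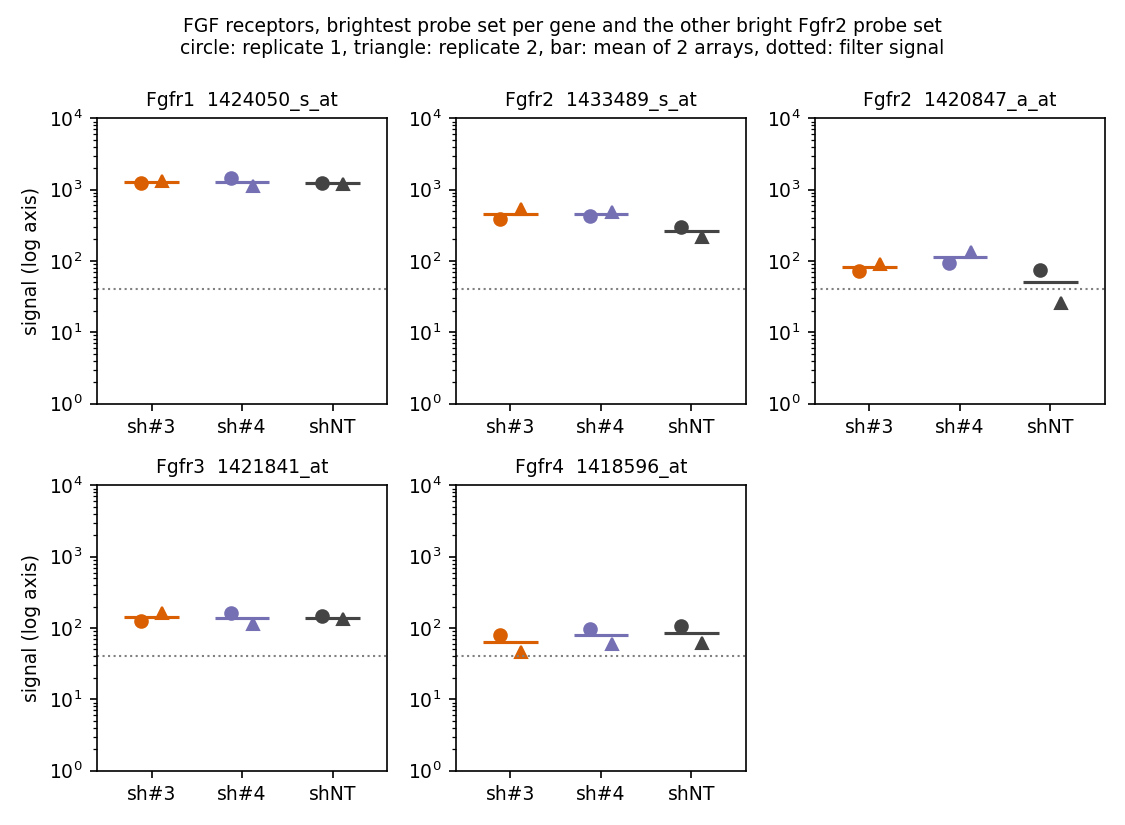
Signal on a log axis of the brightest probe set of each receptor gene, and of the other bright Fgfr2 probe set, in shJmjd1c#3, shJmjd1c#4 and shNT; symbols are as in the plot of ligand signals. The Fgfr2 knockdown arrays lie at 386 to 527 and above both shNT arrays, while Fgfr1, Fgfr3 and Fgfr4 overlap between groups.

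Over all 24 probe sets 17 reached the filter signal on average, and 5 stayed below it in every array. At 4 probe sets (of Fgf5, Fgfr2 and 2 of Fgfr4) all knockdown arrays were above both shNT arrays, and at 0 they were all below, where 9.66% and 7.62% of all probe sets showed these orders. One of the 4, 1427776_a_at of Fgfr4, read 3.35 to 30.8 in knockdown arrays, against 1.15 and 2.15 in shNT, all under the filter signal. In the fit over all probe sets none of the 24 was called by limma and Fgf5 1438883_at alone was called with the block (limma adjusted p = 0.0148), where 0.0422% and 1.03% of all probe sets were called.

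The hairpins were also compared one at a time; both comparisons share the 2 shNT arrays. Fgf5 was at 2.04 (limma adjusted p = 0.19, SE 0.47) in shJmjd1c#3 and 2.13 (limma adjusted p = 0.11, SE 0.47) in shJmjd1c#4. Fgfr2 was at 0.77 and 0.79 (SE 0.23 each). Fgf15 was at 0.49 and 0.91 (SE 0.45 each), and Fgf4 at -0.36 and -0.23 (SE 0.16 each). In shJmjd1c#3 Fgf15 was at -0.15 without shNT replicate 2 and 1.14 without shNT replicate 1, and at 0.074 and 0.91 without shJmjd1c#3 replicates 1 and 2. In shJmjd1c#4 Fgf15 was at 0.26 without shNT replicate 2, 1.55 without shNT replicate 1 and 0.54 without shJmjd1c#4 replicate 1. Fgf4 in shJmjd1c#4 was at -0.0081 without shJmjd1c#4 replicate 1 and -0.45 without shJmjd1c#4 replicate 2. With the mean of probe sets Fgf4 and Fgfr2 in shJmjd1c#3 were at -0.13 and 0.49. The differences of Fgf5 and Fgfr2 with all arrays thus had nearly the same size with either hairpin. None of the 8 tested genes was called with either hairpin, where 0.071% of all genes were called in shJmjd1c#3 and 0.363% in shJmjd1c#4. With the block Fgf5 was called in shJmjd1c#3 (limma adjusted p = 0.00555), where 3.43% of all genes were called. Fgf5 and Fgf15 were called in shJmjd1c#4 with the block (adjusted p = 0.00335 and 0.0283 by limma), where 4.9% were. The direct test, shJmjd1c#4 minus shJmjd1c#3, called 0 of the 8 genes by limma, with the block or without it. Of all genes tested 0% were called, and 0.418% with the block. Without the block 0 of the 8 had an unadjusted p under 0.05, against 6.1% of all genes. The 95% intervals of this difference were -0.97 to 1.14 for Fgf5, -0.50 to 0.53 for Fgfr2, -0.60 to 1.42 for Fgf15 and -0.22 to 0.49 for Fgf4, so differences of these sizes between the hairpins were not resolved.

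**Figure D4:**
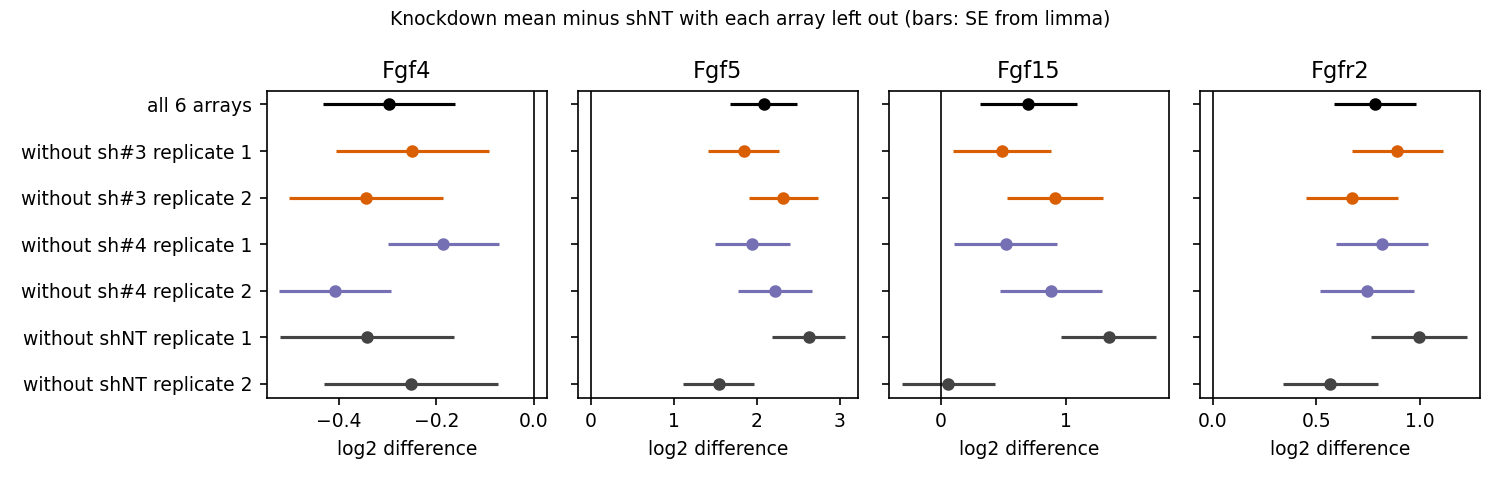
Log2 difference of Fgf4, Fgf5, Fgf15 and Fgfr2, mean of both hairpins minus shNT, with all 6 arrays and with each array left out; bars are SEs from limma and each panel has its own horizontal axis. Fgf5 stays between 1.54 and 2.62 and Fgfr2 between 0.57 and 0.99, while Fgf15 runs from 0.06 without shNT replicate 2 to 1.34 without shNT replicate 1.

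The genes most like the ligand and the receptor with the widest range over the 6 arrays, Fgf5 and Fgfr2, were found by the root mean square difference of log2 values, each gene centred on its own mean. Closest to Fgf5 were Lpar4, a receptor for lysophosphatidic acid, at 0.32, Antxr2, a receptor that binds collagen, at 0.32, and Ptn, the heparin-binding growth factor pleiotrophin, at 0.32. Lpar4 read 1221 to 1744 in knockdown arrays, against 710.3 and 370.1 in shNT. Closest to Fgfr2 were BC052688 at 0.071, Pcp4l1 at 0.079 and Mgat3, a glycosyltransferase, at 0.089. Mgat3 read 119 to 139 in knockdown arrays, against 77.3 and 52.1 in shNT.

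The rest of the pathway was described from lists that were chosen with earlier results of these data known. In this and the following paragraphs, list counts beside shares over all genes are therefore descriptions and not independent tests. Of 12 other FGF ligand genes only 4 were bright enough to be tested, and 0 were called by limma, with the block or without it, and 0 had an unadjusted p under 0.05. The intracellular FGF homologous factors, which are not secreted, had 2 tested genes and 0 calls in both fits, with 0 genes at an unadjusted p under 0.05. Genes of the cascade from receptor to ERK, among them the adaptor gene Shc1 and the kinase genes Braf, Araf and Map2k1, had 17 tested genes, 0 calls by limma in both fits and 0 genes at an unadjusted p under 0.05. Their median was 0.03, against 0.01 for all genes.

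Co-receptors and FGF-binding proteins had a median of 0.57 over 18 tested genes, of which 16 were positive, against 51.7% of all genes tested. The list was not chosen independently of these data, so its counts do not test a shift of the pathway. Of the 18, 8 had an unadjusted p under 0.05 by limma, against 12.3% of all genes. Gpc4, a glypican that carries heparan sulphate, rose to 962 to 1283 in knockdown arrays, against 562 and 484 in shNT (log2 1.01, limma adjusted p = 0.0214, SE 0.14). It was the 1 gene of this list called, where 0.725% of all genes were. With the block 5 rose and 1 fell, where 3.33% of all genes were called higher and 2.26% lower: Cdh2, N-cadherin, which can bind FGF receptors, was at 1.17 (limma adjusted p = 0.000457), and the syndecans Sdc1 and Sdc4 were at 0.66 and -0.36 (adjusted p = 0.00642 and 0.0385 by limma). Gpc4 was no longer called without shNT replicate 2, shJmjd1c#3 replicate 2, or either shJmjd1c#4 array (adjusted p of 0.0504 to 0.114 by limma), at 0.91 to 1.02. Cdh2 was called in the fit of group means only without shNT replicate 1 (1.64, limma adjusted p = 0.0371), and was at 0.70 without shNT replicate 2.

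Heparan sulphate synthesis genes had a median of 0.08 over 15 tested genes, of which 2 had an unadjusted p under 0.05 by limma, against 12.3% of all genes. Hs6st2, which adds sulphate to heparan chains, rose to 608 to 648 in knockdown arrays, against 328 and 297 in shNT (log2 0.97, limma adjusted p = 0.0272, SE 0.14), and was the 1 call in either fit, where 0.725% of all genes were called and 5.6% with the block. It was no longer called without any 1 of the 6 arrays (0.90 to 1.04) or with the mean of its probe sets (0.56).

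Genes induced by ERK had a median of 0.31 over 17 tested genes, 15 of them positive, against 51.7% of all genes tested. Here too the list was chosen with earlier results of these data known, so the counts are descriptive. Of the 17, 6 had an unadjusted p under 0.05 by limma, against 12.3% of all genes. Dusp6, a phosphatase that inactivates ERK, rose to 3986 to 4753 in knockdown arrays, against 2753 and 2269 in shNT (log2 0.80, limma adjusted p = 0.0225, SE 0.11). Spred3, an inhibitor of the cascade, rose to 91.0 to 126 in knockdown arrays, against 7.31 and 25.5 in shNT (log2 1.91, limma adjusted p = 0.0447, SE 0.33). Dusp6 and Spred3 were the 2 calls of the list, where 0.56% of all genes were called higher. With the block 6 of the 17 rose, where 3.33% of all genes did, including Spred1 at 0.57 and Phlda1 at 1.02 (adjusted p = 0.00803 and 0.00112 by limma). Phlda1 was at 0.61 without shNT replicate 1. Spred3 was not called without any 1 array (1.49 to 2.32), nor with a pseudocount of 1 (2.78), no filter, quantile normalization (1.83), median centring (1.83) or probe sets that may cross-hybridize left out (1.91), and was at 1.05 with a pseudocount of 64. Without the intensity trend Gpc4, Hs6st2, Dusp6 and Spred3 all lost their calls. Dusp6 was called only without shNT replicate 1 or shJmjd1c#4 replicate 2 (0.94 and 0.82), and not without shNT replicate 2, either shJmjd1c#3 array or shJmjd1c#4 replicate 1 (0.66 to 0.83).

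Transcription factors that act upstream of Fgf4 or mark the state in which Fgf5 is made had a median of -0.11 over 11 tested genes, and none was called by limma without the block, where 6 had an unadjusted p under 0.05, against 12.3% of all genes. With the block 3 rose and 5 fell, where 3.33% of all genes were called higher and 2.26% lower. Pou3f1, a factor of the formative epiblast, read 3622 and 2432 in shJmjd1c#3 and 2921 and 1444 in shJmjd1c#4, against 1548 and 784 in shNT (log2 1.15, block limma adjusted p = 0.000218). The naive factors Esrrb and Klf4 were at -0.77 and -0.55 and Sox2, which acts on the Fgf4 enhancer, at -0.33 (block adjusted p = 0.000586, 0.00547 and 0.0131 by limma). Pou3f1 was at 0.67 and Esrrb at -0.44 without shNT replicate 2, and Esrrb at -0.35 with the mean of probe sets.

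**Figure D5:**
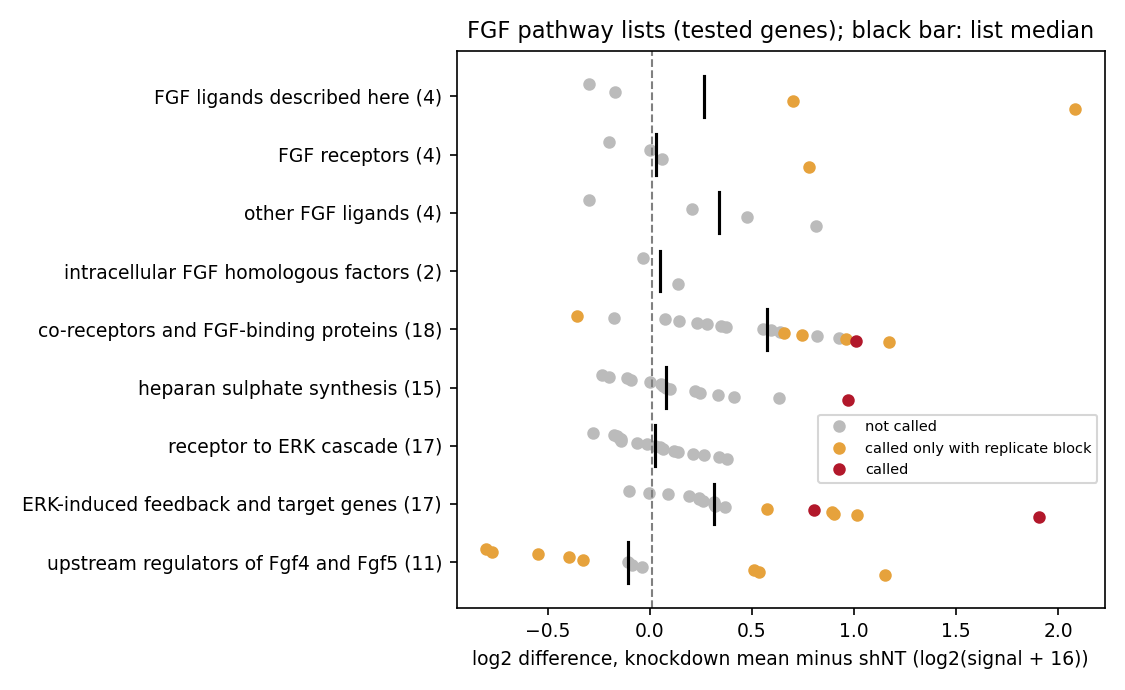
Log2 difference, mean of both hairpins minus shNT, of every tested gene of 9 FGF pathway lists, with the number of tested genes in parentheses; black bars are list medians and the dashed line the median of all genes tested. Calls lie in the lists of co-receptors, heparan sulphate synthesis and ERK-induced genes, and the receptor to ERK cascade has none.

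Some markers of other cell types had the same order of arrays as Fgf5 and Fgfr2, an order shown by 11.2% of all genes tested and 9.66% of all probe sets. Of 10 fibroblast markers 3 (Col3a1, Dcn and Lum) had all 4 knockdown arrays above both shNT arrays. The summed signal of the 10 was 922 to 1226 in knockdown arrays, against 607 and 631 in shNT. The log2 difference was positive for all 7 tested markers of this list. Lum was under the filter signal on every array and was not tested. Postn and Fap, also too dim to be tested, had lower means in knockdown than in shNT arrays (22.3 against 31.6 and 13.5 against 15.0). Of 6 primitive endoderm markers 1 (Sox17) had all 4 knockdown arrays above both shNT arrays. The sum of the 6 was 567 and 507 in shJmjd1c#3 and 1404 and 951 in shJmjd1c#4, against 588 and 419 in shNT. Sox17 read 65.6 and 62.0 in shJmjd1c#3 and 261 and 160 in shJmjd1c#4, against 59.2 and 45.9 in shNT. The log2 difference was positive for 5 of the 6 and -0.05 for Gata4. Gata6 read 82.7 and 77.3 in shJmjd1c#3 and 214 and 144 in shJmjd1c#4, against 113 and 99.3 in shNT. Of 6 trophectoderm markers 2 (Cdx2 and Eomes) had all 4 knockdown arrays above both shNT arrays. The sum of the 6 was 6176 to 13297 in knockdown arrays, against 5494 and 9246 in shNT. Most of this sum came from the keratin genes Krt8 and Krt18. They read 6019 and 4932 in shJmjd1c#3 replicate 2, and 3553 and 3211 in shNT replicate 2. Another marker of that list, Tfap2c, had the opposite sign, at 1563 ± 402 in knockdown and 2132 ± 329 in shNT arrays (SD, n = 4 and 2; log2 -0.47, limma adjusted p = 0.285 and, with the block, 0.0244). Some markers were near the floor on some arrays, such as Fap at 0.85 in shJmjd1c#3 replicate 1 and Cdx2 at 2.43 in shNT replicate 2. A signal above 0 was therefore not taken as detection. The part of these cell types, of the 18S difference and of RNA integrity in the values of Fgf5 and Fgfr2 was not tested, and in bulk samples a change in the number of cells of a type cannot be told apart from a change in RNA per cell.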

How the data were processed

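Each of 6 samples (6 ug of total RNA) had its own Affymetrix expression array of the mouse genome. The deposited values are signal intensities that the authors computed by MAS5 (per the submitters' processing notes). The sources used here do not give its version. The middle 96% of values averaged about 500 on each array (499.8), so arrays had been scaled, and no further normalization was applied. Controls (64 of 45101 probe sets) were left out.

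From these, log2(signal + 16) was fitted by 3 group means over all arrays in limma 3.58.1 (R 4.3.3), using two-sided moderated tests, a trend of variance on intensity and Benjamini-Hochberg adjustment over 12684 genes (residual df 3, prior df 5.96; with the block 2 and 9.34). All probe sets were also fitted without a filter. Deviations of same-numbered arrays from group means correlated at 0.223 to 0.302 across genes in the 3 pairs of groups, so the numbers were taken to pair samples. That inference comes from these data and lowers the spread behind the tests.

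Named were all 10 FGF genes, up to 4 genes per list by smallest p, and the 3 nearest genes to 1 ligand and 1 receptor. The markers Pou5f1, Lum, Postn, Fap, Gata4, Gata6 and Krt8 were named outside this rule, after their values had been seen. Members and lists were chosen with earlier results of these data known. Alternatives were other pseudocounts, filters, normalizations, probe set rules and moderation, the block, the knockdown arrays as 1 group, and leaving out each array. The fit of group means was tested on simulated data with independent noise in each array. The fit with the block was not simulated, so that check does not cover its calls. Some listed pathway genes were not analysed here.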

Additional observations from a re-analysis of the deposited data

How the results depend on the processing

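Under every alternative run without the block and with 3 groups, 0 of the FGF genes were called in any comparison. The count in the mean of both hairpins was 3 with the block, 1 when all knockdown arrays formed 1 group, and 1 to 3 under the block without single arrays, an alternative added after the data were seen. With the block it was 1 in shJmjd1c#3, 2 in shJmjd1c#4 and, over all probe sets, 1. Fgf4, Fgf5, Fgf15 and Fgfr2 kept their direction in the mean of both hairpins under all alternatives run for them. Signs turned for other genes, comparisons and probe sets. Fgfr3 was at -0.056 with quantile normalization, -0.072 with median centring and -0.11 to 0.11 without single arrays, and Fgfr1 at -0.015 with median centring and -0.033 to 0.15 without single arrays. Fgf17 was at 0.0027 with the mean of probe sets (1456239_at has the other sign) and -0.38 to 0.041 without single arrays, Fgfr4 at -0.52 to 0.12. By probe set, ranges without single arrays were -0.65 to 0.29 for Fgf4 1449729_at, -0.11 to 0.46 for Fgf17 1456239_at, -0.11 to 0.37 for Fgfr4 1427777_x_at and -0.33 to 1.08 for Fgf10. In shJmjd1c#3 Fgf15 ran from -0.15 to 1.14. For shJmjd1c#4 minus shJmjd1c#3 the ranges were -0.39 to 0.56 (Fgf5), -0.0080 to 0.83 (Fgf15), -0.20 to 0.23 (Fgfr2) and -0.088 to 0.36 (Fgf4), with -0.054 for Fgfr2 under median centring and -0.10 for Fgf4 with the mean of probe sets.

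Of all genes, 92 were called in the mean of both hairpins, 710 with the block, 36 without the filter, 34 with the mean of probe sets, 59 without probe sets that may cross-hybridize, 0 without an intensity trend (by limma; the unadjusted count of the group-mean fit was 1559) and 4 to 43 without single arrays. In shJmjd1c#3 there were 9, with 435 with the block, 0 with a pseudocount of 1, no filter, a 60th percentile filter, the mean of probe sets or no trend, and 0 to 1 without single arrays. In shJmjd1c#4 there were 46, with 622, 21, 27 and 6 with the block, no filter, the mean of probe sets and no trend, and 3 to 39 without single arrays. The hairpins differed at 0 genes by limma (774 unadjusted) and at 53 with the block. The causes were not tested. Fgf5 was not tested under the 60th percentile filter or with the mean of probe sets, since it was then too dim. Low signal limits what can be said of Fgf5, Fgf8, Fgf10 and the dim probe sets of Fgfr4, and with 2 arrays a group a single array can move a value by more than its standard error.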
